A study of Bos taurus with 48 samples.

Results

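The genes CS, IDH2, IDH3A, IDH3B, OGDH, DLST, FH, MDH1 and MDH2, which encode enzymes of the citrate cycle and the cytosolic counterpart of its last step, were followed in liver of grazing dairy cows around calving. They were taken by name: each spot whose gene name in the annotated array table equalled one of the 9 symbols was used, which gave 27 of 33521 named spots and 9 of 16313 genes. All 9 had a value on all 48 arrays and entered the tests together with the other genes measured on at least 24 arrays (15011 in all). The number of probes was 2 for IDH3A, OGDH and DLST, 3 for CS, IDH2 and MDH1, and 4 for IDH3B, FH and MDH2.

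The citrate cycle runs in mitochondria and oxidises the acetyl group of acetyl-CoA, which comes from pyruvate or from fatty acids, to carbon dioxide, passing the electrons to the respiratory chain. In liver its intermediates also leave the cycle, as malate and oxaloacetate for synthesis of glucose and as citrate for synthesis of fatty acids. The study's paper describes the capacity of ruminant liver for fatty acid synthesis as low. Around calving the liver of a ruminant takes up fatty acids released from body fat and makes nearly all the glucose used for milk, so fat oxidation and glucose synthesis draw on the same pool of oxaloacetate.

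Biopsies of liver came from 32 cows, 8 in each of 4 treatments, and each cow was sampled 7 d before calving (−7 d) and 7 and 28 d after it. B5F125 and B5F75 cows had a prepartum body condition score (BCS) of 5 on a 10-point scale and were offered 125 or 75 % of their energy requirement for 3 weeks before calving, by daily pasture allowance. B4F125 and B4F75 cows had a BCS of 4 and the same 2 allowances. Each two-colour Agilent array set the RNA of 1 cow in Cy5 against that of another in Cy3, and each of 16 pairs of cows shared 3 arrays. The cows of 12 pairs had different treatments and were hybridised day by day (36 arrays). The cows of the remaining 4 pairs, 1 pair for each treatment, shared their treatment, and a sample of 1 cow on 1 day was set against the other cow on another day (12 arrays). The cows were of mixed breed in the study's methods and American Holstein in the labels. Mean age and the share of Jersey crosses differed between the treatments and are not given here for single cows, so that they cannot be told apart from treatment.

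The files hold 1 log2 ratio per spot and array, with no signal of either channel. Levels of different genes, and the presence of liver markers in a sample, could therefore not be read, and a value for a gene here is always a difference between samples. Of all values 15.95 % were blank (1.42 to 21.5 % on an array). The arrays had medians between 0 and 0.52 and were centred on them. Each ratio was fitted as the difference between 2 of the 12 groups of treatment and day plus an effect of dye, and the 3 arrays of a pair were allowed to correlate. Ratios of single arrays, with their means and signs, are printed with the dye effect still in them, unlike the fitted values. In each pair that compared days the same cow was in Cy5 on all 3 arrays. Calls needed both an unadjusted p no higher than 0.01 and a fold change (FC) of 1.5 or more either way, and p adjusted by Benjamini-Hochberg over all genes is given beside. Fewer cells of a type and less RNA per cell cannot be told apart in pieces of tissue.

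Signs are given with the ratio read as Cy5 over Cy3, a reading that no column or label states. It gives most genes of the study's lists of feeding responses the sign they have there. On the arrays that compare days, however, it puts haptoglobin (HP, an acute phase protein) at a log2 FC of −3.58 and insulin-like growth factor 1 (IGF1) at 0.91 at 7 d vs −7 d, opposite to what is usually described after calving. The other genes checked there were LBP (−1.34), SAA3 (−1.17), ITIH4 (−0.48), HAMP (−1.29), IGFBP2 (−1.21), PC (−1.11), PDK4 (0.365) and CPT1A (0.01). If the reading is wrong on all arrays, every sign below turns together. If days were exchanged in the labels of the arrays that compare days, signs between days could be wrong. Those arrays also enter the fitted feeding values of single days, whose sizes, tests and calls could then change as well. This was not tested. With the numerator exchanged on all arrays, sizes, standard errors, tests and counts of calls stay the same, and values of opposite sign stay opposite.

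CS encodes citrate synthase, which joins acetyl-CoA to oxaloacetate and opens the cycle. In BCS5 cows the 6 arrays that held both feeding levels gave log2 ratios of B5F125 over B5F75 of 0.52 and −1.21 at −7 d, 0.08 and 1.85 at 7 d, and −0.17 and −0.23 at 28 d. The corresponding values of B4F125 over B4F75 were 0.61 and 0.37 at −7 d, −0.26 and 0.16 at 7 d, and −0.01 and −1.88 at 28 d. In neither BCS did the arrays share a sign, and single arrays lay far from the rest. The fitted log2 FC averaged over the days was 0.09 ± 0.24 (SE) for B5F125 vs B5F75 and −0.39 ± 0.24 for B4F125 vs B4F75, with 95 % intervals of −0.39 to 0.57 and −0.87 to 0.09. The high array of BCS5 cows at 7 d stood beside unequal probes, whose fitted log2 FC there was −0.02, 1.04 and 0.20. Between days CS differed by at most 0.21 on the log2 scale, with an SE of 0.27.

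Isocitrate is oxidised to 2-oxoglutarate by a pair of mitochondrial enzymes. IDH2 encodes the NADP-dependent enzyme, which also supplies NADPH, while IDH3A and IDH3B encode the catalytic and a regulatory subunit of the NAD-dependent enzyme, the classical step of the cycle. IDH2 was the only one of the 9 genes to be called in any comparison made, and it was called at 7 d vs −7 d and at 28 d vs −7 d.

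For IDH2 at 7 d over −7 d the 4 arrays gave −0.72 in B5F125, 0.12 in B5F75, −0.89 in B4F125 and −1.73 in B4F75. At 28 d over −7 d they gave −0.79 in B5F125, −0.97 in B5F75, 0.45 in B4F125 and −1.57 in B4F75. In each comparison 3 of the 4 arrays were below 0, the array of B4F75 cows was the lowest, and a different treatment was the exception. The fitted log2 FC was −0.77 ± 0.25 at 7 d vs −7 d and −0.76 ± 0.25 at 28 d vs −7 d, about 0.59-fold in each, with adjusted p of 0.318 and 0.233. The log2 FC at 28 d vs 7 d was 0.01 ± 0.25, so the value was set apart at −7 d, as the plot of fitted group values shows: the deviations of IDH2 from the mean of the 12 groups were 0.88 in B5F125, 0.43 in B5F75, 0.20 in B4F125 and 0.53 in B4F75 at −7 d, each with an SE of 0.24, and none of the 8 later groups exceeded 0. The fit joins days only through the arrays that compare them, so these group values are not separate observations of a day difference. All 3 IDH2 probes had the same sign, with log2 FC of −0.49, −0.88 and −0.94 at 7 d vs −7 d and −0.58, −0.77 and −0.92 at 28 d vs −7 d. These calls rested on few cows: without the pair of B4F75 cows the log2 FC was −0.34 ± 0.27 at 7 d and −0.20 ± 0.27 at 28 d, and neither was called. The call at 7 d was also lost without the pair of B4F125 cows (−0.77 ± 0.29) and that at 28 d without the pair of B5F125 cows (−0.82 ± 0.32).

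**Figure D1:**
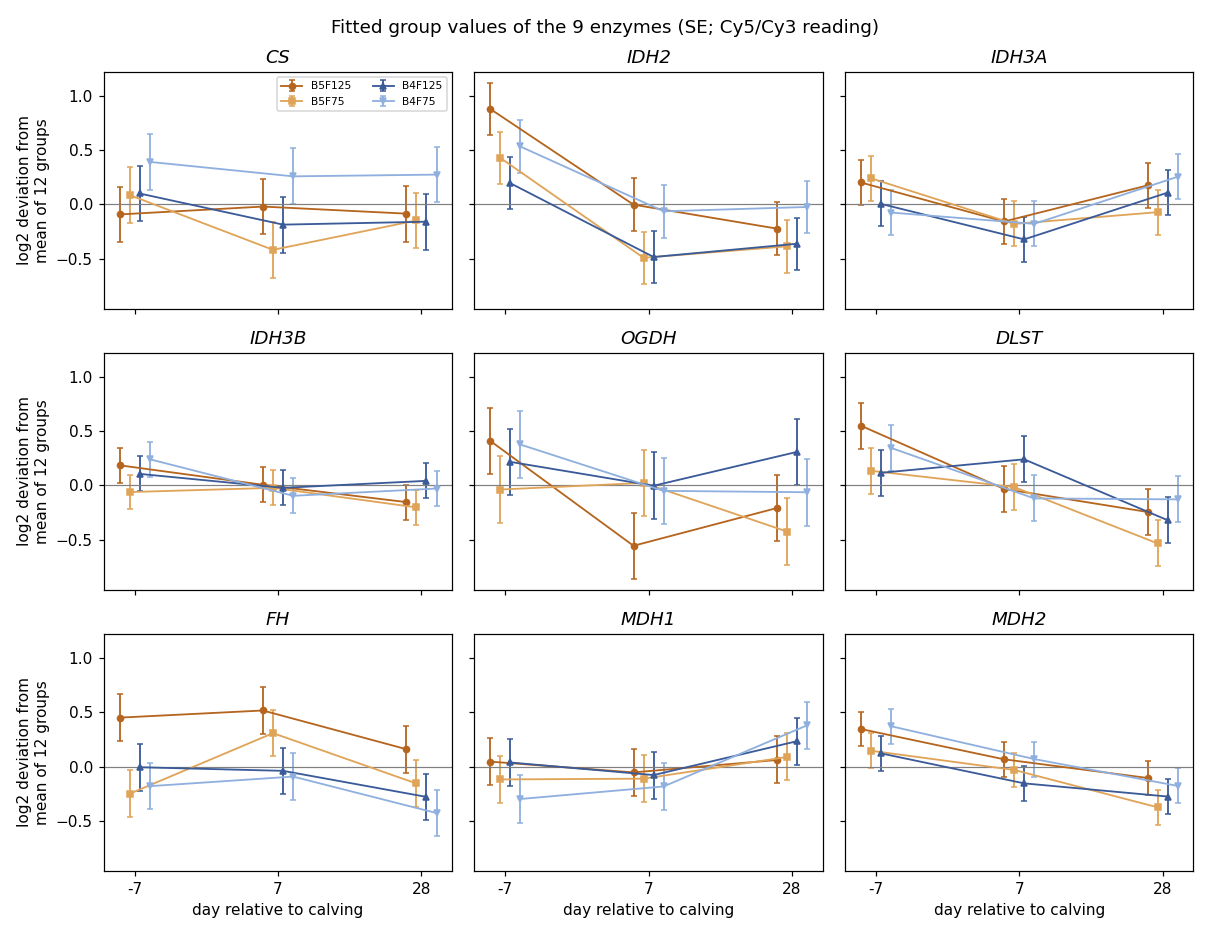
Fitted values of the 9 enzymes in the 12 groups, as log2 deviation from the mean of all groups (y axis) by day relative to calving (x axis), with bars of 1 SE, in the Cy5/Cy3 reading. IDH2 lies highest at −7 d in all 4 treatments, with deviations of 0.20 to 0.88, while IDH3B stays between −0.20 and 0.24 throughout. Days are joined only by the 12 arrays that compare them, so the 4 profiles are not separate observations of a day difference.

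The feeding response of IDH2 had opposite signs in the 2 BCS classes. B5F125 over B5F75 gave 0.56 and −0.20 at −7 d, 0.88 and 1.01 at 7 d, and −0.04 and 0.52 at 28 d. B4F125 over B4F75 gave −0.29 and −0.13 at −7 d, −0.94 and 0.30 at 7 d, and −1.01 and −0.56 at 28 d. Thus 4 of 6 arrays were above 0 in BCS5 cows and 5 of 6 were below 0 in BCS4 cows, and the values overlapped. The difference between the responses, BCS5 minus BCS4, was 0.91 ± 0.44 at 7 d (95 % interval 0.02 to 1.80, adjusted p 0.939) and was not called. With 1 probe per gene it was 0.43 ± 0.54.

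IDH3A and IDH3B moved less. Over the days the feeding response of IDH3A was 0.08 ± 0.19 in BCS5 cows and −0.07 ± 0.19 in BCS4 cows, and that of IDH3B was 0.11 ± 0.15 in BCS5 cows and 0.00 ± 0.15 in BCS4 cows. IDH3B had among the narrowest intervals of the 9 genes, −0.19 to 0.41 in BCS5 cows and −0.30 to 0.30 in BCS4 cows, which leave out a difference of 1.5-fold. The 2 subunits of the same enzyme had a correlation of 0.36 over the 48 arrays. At 28 d over 7 d the arrays gave IDH3A ratios of 0.87 in B5F125, 0.82 in B5F75, 0.97 in B4F125 and 0.75 in B4F75, all above 0 and close together. A ratio of 1 such array also holds the difference between its 2 cows, however, and with the pair in the fit the log2 FC of IDH3A was 0.33 ± 0.22 (adjusted p 0.627). Its 2 probes gave 0.69 and −0.04.

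OGDH and DLST encode the decarboxylating E1 and the succinyl-transferring E2 component of the 2-oxoglutarate dehydrogenase complex, which makes succinyl-CoA. OGDH had the largest residual SD of the 9 genes, 0.88 on the log2 scale against a median of 0.59 over all genes. Its ratios of B5F125 over B5F75 were 0.16 and 0.53 at −7 d, 0.46 and −1.14 at 7 d, and 0.36 and −0.43 at 28 d, and those of B4F125 over B4F75 were 0.29 and 0.10 at −7 d, −1.16 and 1.92 at 7 d, and −0.84 and 0.37 at 28 d. After calving the 2 pairs of cows of each BCS went opposite ways on each day. The feeding response of BCS5 cows was lower at 7 d than at −7 d by 1.03 ± 0.48 on the log2 scale (95 % interval −1.99 to −0.06, adjusted p 0.745), which was not called, and the difference was −0.67 ± 0.49 without the 12 arrays that compare days and −0.62 ± 0.53 without the pair of B5F75 cows among them.

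DLST at 28 d over −7 d had ratios of 0.37 in B5F125, −0.65 in B5F75, −0.09 in B4F125 and −1.73 in B4F75. The fitted log2 FC was −0.59 ± 0.22 (adjusted p 0.295), just past 1.5-fold but not past the p threshold, and its 2 probes gave −0.50 and −0.68. The array of B4F75 cows was again the lowest, and without that pair the value was −0.24 ± 0.24. DLST did pass both thresholds with the arrays left uncentred (−0.68 ± 0.23) without the pair of B5F125 cows (−0.91 ± 0.26), and without 1 pair of B5F125 with B4F75 cows (−0.59 ± 0.20). Over the days its feeding response was 0.23 ± 0.20 in BCS5 cows and −0.02 ± 0.20 in BCS4 cows.

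**Figure D2:**
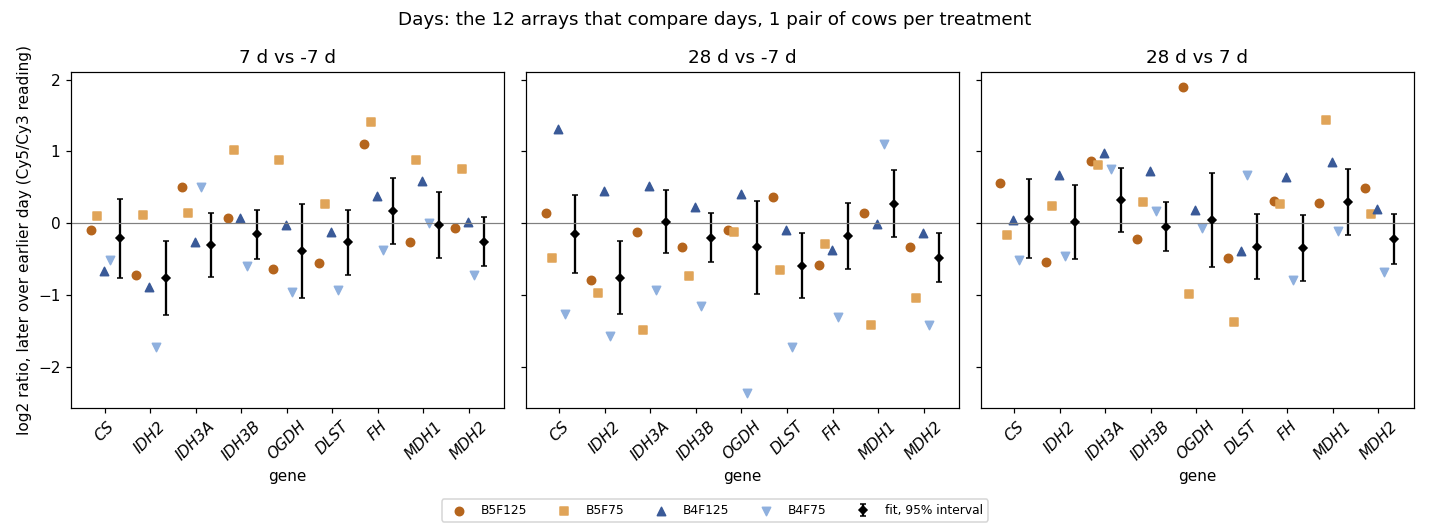
Log2 ratio of the later over the earlier day (y axis, Cy5/Cy3 reading) for each enzyme (x axis) on the 12 arrays that compare days, with 1 pair of cows per treatment (coloured points), and the fitted log2 FC with its 95 % interval (black). The coloured points still hold the dye term. At 28 d vs −7 d the B4F75 array is the lowest for IDH2 (−1.57), OGDH (−2.36), DLST (−1.73), MDH2 (−1.42), CS (−1.26), IDH3B (−1.15) and FH (−1.31), 7 of the 9, and highest for MDH1 (1.10).

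FH encodes fumarate hydratase, which adds water to fumarate to give malate. It had the smallest p of the 9 genes for feeding level in BCS5 cows at −7 d and over the days and for BCS, without being called in any of them. The ratios of B5F125 over B5F75 were 0.39 and 1.25 at −7 d, 0.48 and 0.93 at 7 d, and 0.03 and 1.03 at 28 d, all 6 above 0. The ratios of B4F125 over B4F75 were 0.37 and 0.08 at −7 d, −0.03 and 0.44 at 7 d, and −0.13 and 0.14 at 28 d. FH was the only one of the 9 with 6 of 6 arrays on 1 side of 0 in either BCS, and the higher value of each day came from the same pair of BCS5 cows.

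Fitted on all arrays, the log2 FC of FH in BCS5 cows was 0.70 ± 0.28 at −7 d (1.62-fold, 95 % interval 0.14 to 1.26), 0.21 ± 0.28 at 7 d and 0.31 ± 0.28 at 28 d. Averaged over the days it was 0.41 ± 0.20 in BCS5 cows and 0.12 ± 0.20 in BCS4 cows. Its adjusted p was 1.0 at −7 d and over the days, and the difference between the BCS classes was not called on any day. All 4 FH probes were above 0 at −7 d, at 0.59, 0.83, 0.55 and 0.83. FH was called there without the 12 arrays that compare days (0.73 ± 0.26), and also without either the B4F75 (0.70 ± 0.25) or the B5F125 pair (0.82 ± 0.29) of those arrays. It was called as well without 1 pair of B5F125 with B4F75 cows (0.73 ± 0.26) and without 1 pair of B5F75 with B4F125 cows (0.78 ± 0.28). Without the higher of the 2 pairs that held both feeding levels it was 0.52 at −7 d, and over the days 0.20. Over the days and both feeding levels, FH in BCS5 over BCS4 cows had a log2 FC of 0.34 ± 0.14 (95 % interval 0.06 to 0.63), and 18 of the 24 arrays that set a BCS5 against a BCS4 cow were above 0, from −0.65 to 1.75 with a median of 0.22. Without 1 pair of B5F75 with B4F125 cows this log2 FC was 0.23, and the adjusted p in all cows was 1.0. The 3 arrays of a pair were more alike for FH than for the other 8 enzymes (a correlation of 0.449, against the 0.151 shared by all genes in the fit). With a correlation of its own in the mixed model, the SE was 0.18 for BCS and 0.25 for feeding level in BCS5 cows over the days, and neither value was then distinct from 0 at the 95 % level.

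**Figure D3:**
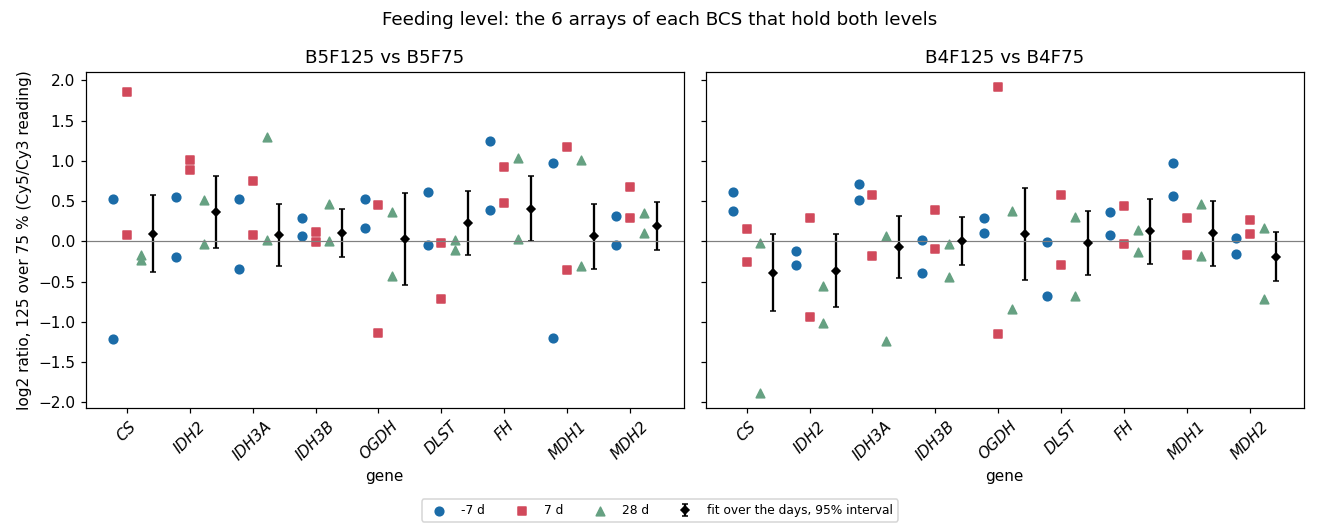
Log2 ratio of 125 over 75 % feeding (y axis, Cy5/Cy3 reading) for each enzyme (x axis) on the 6 arrays of each BCS that held both levels, coloured by day, beside the fitted log2 FC over the days with its 95 % interval (black, from all arrays). The coloured points still hold the dye term. All 6 BCS5 points of FH lie above 0, between 0.03 and 1.25, while the points of the other enzymes spread over both sides.

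MDH2 encodes mitochondrial malate dehydrogenase, which closes the cycle by oxidising malate to oxaloacetate, and MDH1 the cytosolic enzyme, which works in the malate-aspartate shuttle and in the export of oxaloacetate for glucose synthesis. MDH2 at 28 d over −7 d had ratios of −0.34 in B5F125, −1.05 in B5F75, −0.13 in B4F125 and −1.42 in B4F75, all below 0. Its log2 FC was −0.48 ± 0.17 (0.72-fold, adjusted p 0.27), which stopped short of 1.5-fold although its p was below that of the threshold. The 4 probes gave −0.48, −0.57, −0.02 and −0.75, so that with 1 probe per gene the value was −0.02 ± 0.19, and without the B4F75 pair it was −0.08 ± 0.18. MDH2 was called without the pair of B4F125 cows (−0.65 ± 0.20) and without that of B5F125 cows (−0.65 ± 0.20). Its feeding response over the days was 0.19 ± 0.15 in BCS5 cows, where 5 of 6 arrays were above 0, and −0.19 ± 0.15 in BCS4 cows.

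MDH1 did not follow MDH2, and their correlation over the arrays was 0.11. Its log2 FC was 0.27 ± 0.23 at 28 d vs −7 d and 0.30 ± 0.23 at 28 d vs 7 d, against −0.48 ± 0.17 and −0.22 ± 0.17 for MDH2. The feeding response of MDH1 over the days was 0.06 ± 0.20 in BCS5 cows and 0.10 ± 0.20 in BCS4 cows. It also had the largest dye term of the 9, −0.35 ± 0.09 on the log2 scale, and one of its probes had a value on only 18 arrays and gave 1.68 at 7 d vs −7 d where the others gave −0.07 and −0.23.

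As a group, the 9 enzymes gave no call for feeding level. In BCS5 cows 0 of 9 were called at −7, 7 and 28 d and over the days, against 0.64, 1.05, 0.393 and 0.447 % of all genes, and 1 of 9 had an unadjusted p under 0.05 at −7 d and over the days, FH. In BCS4 cows 0 of 9 were called at −7, 7 and 28 d and over the days, against 0.473, 1.01, 0.846 and 0.433 % of all genes, and 0 of 9 had an unadjusted p under 0.05. A mixed model fitted gene by gene with lmerTest called 0 of 9 in these comparisons too. The median log2 FC of the 9 in BCS5 cows was 0.25, 0.06 and 0.22 at −7, 7 and 28 d and 0.11 over the days, where all 9 were above 0, beside medians of all genes of 0.01, 0.02, 0.00 and 0.01. The median in BCS4 cows was −0.16, 0.05 and −0.15 at −7, 7 and 28 d and −0.02 over the days, where 4 of 9 were above 0, beside medians of all genes of −0.02, 0.01, −0.01 and −0.01. With 9 genes that share arrays and correlate, these signs are not 9 separate observations, and with a pair of cows left out 7 to 9 of them were above 0 over the days in BCS5 cows.

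**Figure D4:**
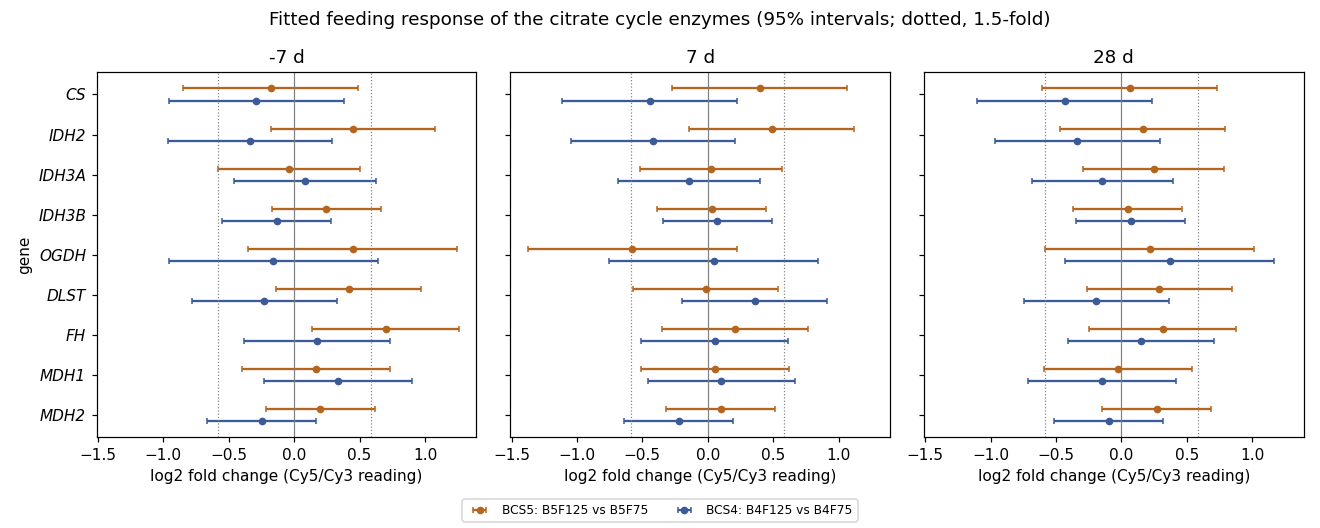
Fitted log2 FC of 125 vs 75 % feeding (x axis, Cy5/Cy3 reading) of each enzyme (rows) at −7, 7 and 28 d in BCS5 (orange) and BCS4 cows (blue), with 95 % intervals; dotted lines mark 1.5-fold. The interval of FH in BCS5 cows at −7 d, 0.14 to 1.26, is the only one that leaves out 0.

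For the interaction of BCS and feeding, 0 of 9 were called at −7, 7 and 28 d, against 0.42, 0.987 and 0.633 % of all genes, and only IDH2 at 7 d had an unadjusted p under 0.05. The change of the feeding response between −7 and 7 d gave 0 of 9 calls in BCS5 cows (1.35 % of all genes, with OGDH alone at an unadjusted p under 0.05) and 0 of 9 in BCS4 cows (0.94 % of all genes, none at that p). BCS5 vs BCS4 gave 0 of 9 (0.174 % of all genes, with FH alone at that p). The mixed model called none of the 9 in these comparisons.

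Between days, 1 of 9 was called at 7 d vs −7 d and 1 of 9 at 28 d vs −7 d, IDH2 in each, beside 1.59 and 2.15 % of all genes. At 28 d vs 7 d 0 of 9 were called, beside 1.92 % of all genes, and none of the 9 had an unadjusted p under 0.05. At 7 d vs −7 d 8 of 9 log2 FC were below 0 with a median of −0.26, beside −0.02 for all genes, and FH was the exception at 0.17 ± 0.23. The 4 arrays differed: the mean ratio of the 9 was −0.07 in B5F125 (3 of 9 above 0), 0.62 in B5F75 (9 of 9), −0.10 in B4F125 (4 of 9) and −0.59 in B4F75 (1 of 9). Without the B4F75 pair 5 of 9 were below 0 with a median of −0.0041. At 28 d vs −7 d 7 of 9 were below 0 with a median of −0.20, beside 0.00 for all genes, and the exceptions were MDH1 and IDH3A (0.02 ± 0.22). There the mean ratio of the 9 was −0.18 in B5F125 (3 of 9 above 0), −0.80 in B5F75 (0 of 9), 0.26 in B4F125 (5 of 9) and −1.18 in B4F75 (1 of 9). Without the B4F75 pair the median turned to 0.26 and 3 of 9 were below 0. Of the log2 FC at 28 d vs 7 d 4 of 9 were below 0. The 3 comparisons share the same 12 arrays.

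RNA integrity numbers given in the labels averaged 8.18 at −7 d, 7.77 at 7 d and 8.17 at 28 d. Of the listed red cell markers 4 of 6 were measured. Their log2 FC ranged from −0.04 to 1.82 at 7 d vs −7 d and from −1.10 to 1.80 at 28 d vs −7 d, with 1 of the 4 below 0 in each. HBB, the beta chain of haemoglobin, was called in both (1.82 ± 0.48 and 1.80 ± 0.48). HBA, the alpha chain, was called at 28 d vs −7 d as well (0.60 ± 0.22). Of all genes 1.59 and 2.15 % were called there. HBB was also called for B5F125 vs B5F75 at −7 d (1.95 ± 0.58), beside the FH value there, where HBA was at 0.05 ± 0.27. In that comparison 2 of the 4 red cell markers were above 0 and 2 below, with a median of 0.01, and 0.64 % of all genes were called. The part of blood and of RNA integrity in the values of the 9 enzymes was not tested. Of 11 measured hepatocyte markers 0 were called in those 3 comparisons, with medians of 0.13 at 7 d vs −7 d, 0.02 at 28 d vs −7 d and 0.22 at −7 d in B5F125 vs B5F75 cows. In the last of these 10 of the 11 were above 0, as were 7 of 8 macrophage markers (median 0.23). There all 5 measured cholangiocyte markers (median −0.44) and all 5 of stellate cells and fibroblasts (median −0.16) were below 0. The part of cell types in the FH value was not tested. Levels of marker genes were not in the files. Neutrophil markers were among those that moved at 7 d, beside the IDH2 interaction. All 7 were above 0 in that interaction, from 0.16 to 2.06 with a median of 0.51, beside 0.02 for all genes. S100A9 (2.06 ± 0.55) and S100A12 (1.36 ± 0.44), calcium-binding proteins abundant in neutrophils, were called, beside 0.987 % of all genes. Both were also called for B4F125 vs B4F75 at 7 d (−1.66 ± 0.39 and −0.997 ± 0.31), where 4 of the 7 were below 0 and 1.01 % of all genes were called. In the same interaction all 5 measured cholangiocyte markers were below 0 (median −0.56). All 5 of stellate cells and fibroblasts were above 0 (median 0.29), as were 4 of 5 of skeletal muscle (median 0.55). Macrophage, endothelial, hepatocyte and red cell markers were split, with 5 of 8, 4 of 7, 3 of 11 and 3 of 4 above 0. None of these was called. The part of any cell type in the IDH2 value was not tested.

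Around these enzymes stand the remaining genes of the cycle, the pyruvate dehydrogenase complex and the enzymes by which carbon enters or leaves, of which 19 of 21 listed were measured. None was called for feeding level, BCS or their interaction, beside 0.174 to 1.05 % of all genes. The smallest p for B5F125 vs B5F75 at −7 d were those of SDHA, the flavoprotein of succinate dehydrogenase (0.59 ± 0.24), and SDHD, one of its membrane anchors (0.25 ± 0.18). In B4F125 vs B4F75 at −7 d they were those of SUCLG2, a subunit of succinyl-CoA ligase (0.43 ± 0.14), and the cytosolic aconitase ACO1 (−0.52 ± 0.30). SUCLG2 averaged 0.26 ± 0.10 over the days in BCS4 cows. Between days 1 of 19 was called at 7 d vs −7 d, beside 1.59 % of all genes. It was PC, which encodes pyruvate carboxylase, the enzyme that makes oxaloacetate from pyruvate (−1.11 ± 0.35, adjusted p 0.291). PC was also among the genes checked for the signs between days, which are not settled, so a fall after calving cannot be read from it. PC had the sign of IDH2 there and of 12 of the 19 genes, and it was not called without the B4F75 pair (−0.91 ± 0.43) or the B5F125 pair (−0.81 ± 0.42). At 28 d vs −7 d 0 of 19 were called, beside 2.15 % of all genes, and 13 of 19 were below 0. Their median was −0.22, beside 0.00 for all genes, and was not refitted without the B4F75 pair. PCK1, cytosolic phosphoenolpyruvate carboxykinase of glucose synthesis (−0.53 ± 0.24), and PDHA1, a subunit of pyruvate dehydrogenase (−0.36 ± 0.16), had the smallest p of that list.

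The malate-aspartate shuttle and the carriers of the inner membrane move the same metabolites between mitochondrion and cytosol, and 5 of 7 listed genes were measured. None was called in any comparison, beside 0.174 to 2.15 % of all genes. SLC25A11, the carrier that exchanges 2-oxoglutarate for malate, had a log2 FC of −0.46 ± 0.17 at 7 d vs −7 d, the smallest p of the list there. SLC25A13, an aspartate-glutamate carrier, followed (−0.40 ± 0.19). At 28 d vs −7 d all 5 were below 0, beside a median of 0.00 for all genes, and were not refitted without the B4F75 pair. GOT1, cytosolic aspartate aminotransferase, was at 1.17 ± 0.48 in B5F125 vs B5F75 cows at −7 d. Of 12 genes of mitochondrial content and biogenesis none was called in any comparison, beside the same shares of all genes. Their median was −0.07 at 7 d vs −7 d and 0.04 at 28 d vs −7 d. HSPE1, the small mitochondrial chaperonin, had the smallest p of that list at 28 d vs 7 d (0.44 ± 0.13, adjusted p 0.17), and TFAM, a transcription factor of mitochondrial DNA, the smallest in B5F125 vs B5F75 at −7 d (−0.29 ± 0.17).

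Across the 48 arrays, after removal of the dye term, the ratios of the 9 enzymes tended to move together. Of 36 pairs of genes 33 had a Pearson correlation above 0, with a median of 0.37 and a range from −0.09 (DLST with MDH1) to 0.68 (IDH2 with MDH2), against a median of 0.00 for a member with all genes. MDH2 correlated most with the mean of the other 8 (0.78), followed by IDH2 (0.71) and IDH3B (0.69), while CS (0.33) and MDH1 (0.17) correlated least. MDH1 was closest to IDH3A (0.47). The 48 values are not independent, since each pair of cows gave 3 and all genes on an array share its labelling, so these are descriptions.

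**Figure D5:**
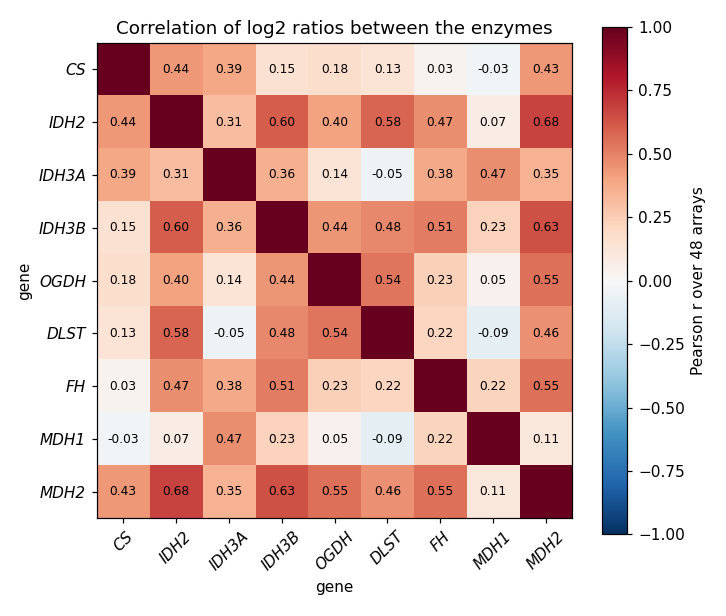
Pearson correlation of the log2 ratios of each pair of enzymes over 48 arrays, dye term removed; both axes list the genes and the colour scale runs from −1 to 1. MDH2, IDH2 and IDH3B form the closest set (0.61 to 0.68), and MDH1 stands apart from all but IDH3A (0.47).

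The 3 genes whose ratios were most like those of each enzyme over the 48 arrays were picked from all genes. That they correlated with it more closely than any other of the 9 did was largely fixed by this choice. The 3 genes were ZNF444, AFTPH and ALDOA for CS (0.75 to 0.77), GPI, PTGES2 and COQ9 for IDH2 (0.74 to 0.78), SLC25A5, MAPKAPK5 and CCT6A for IDH3A (0.73 to 0.74), and TMX2, MRPL28 and a locus written LOC7817 for IDH3B (0.85 to 0.87). For OGDH they were ACADVL, CBS and COPG1 (0.78 to 0.79), for DLST GULO, RBCK1 and LYPLA2 (0.78 to 0.79), and for FH FAM213A, PAAF1 and HGD (0.70 to 0.76). For MDH2 they were ATP6V0D1, PGLS and MTHFD1 (0.80 to 0.83), and for MDH1 C1QBP, METAP2 and COX15 (0.58 to 0.64), the lowest of the 9.

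The precision differed between the enzymes. For a feeding comparison on 1 day the SE ran from 0.21 for IDH3B and MDH2 to 0.40 for OGDH on the log2 scale, and for a comparison of days from 0.17 to 0.32. The residual SD of IDH3B and MDH2 (0.44 each) exceeded that of 27.6 and 27.9 % of all genes, and that of OGDH exceeded 73.2 %. For CS, IDH2, OGDH, FH and MDH1 the 95 % intervals of the feeding response reached past 1.5-fold in at least 1 direction on every day in both BCS classes, so a difference of that size was not excluded for them. Intervals of IDH3A, IDH3B, DLST and MDH2 reached past it in part of these comparisons. In BCS5 cows that of IDH3B ran up to 0.66 at −7 d and that of MDH2 up to 0.69 at 28 d.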

How the data were processed

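Liver RNA of 32 cows was compared on 48 two-colour arrays. Per the study's methods, the authors scanned the slides with GenePix, left out substandard spots and adjusted ratios by lowess and array centring. The deposited values are log2 ratios, 1 per spot and array, and their medians (0 to 0.5213) showed no centring. Build and numerator are not given in the sources used here. The 48 value columns of the annotated table match no label and were not used. It supplied gene names only, which lack the digit 0: 361 were restored from the RefSeq gene table (ARS-UCD2.0) and 291 that fit several genes, with 24 turned into dates, left out.

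Arrays were centred on the median and probes of a gene averaged. In R 4.3.3 with limma 3.58.1 and statmod 1.5.0, ratios of 15011 genes were fitted with terms for group and dye and a random block for cow pair (correlation 0.151), on 36 residual and 3.17 prior degrees of freedom. The limma-type moderated tests were tested on simulated data. The block comes from the methods, where cow is random. Cow pairs are separate animals. Read as Cy5 over Cy3, 306 of 378 genes that could be matched in the study's lists of feeding responses had their sign there. On 24 of 24 couples of arrays with swapped dyes the ratios of a pair of cows correlated below 0. All 12 arrays between days correlated above 0 with the dye profile of the others (0.025 to 0.3). The same channel was taken as the numerator on all arrays. The lowest of these correlations lay below the lowest of an array within a day (0.07), so the numerator is not settled for each array between days. These correlations cannot show whether days were exchanged in the labels of the arrays between days.

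The members and gene lists were chosen with earlier results of these data known. Named genes were the 9 enzymes, genes of 3 lists that were called or, where none was, from the 2 with the smallest p, and the 3 genes most like each enzyme. HP, IGF1, HBB and HBA, and IDH3A on the arrays at 28 d over 7 d, were singled out after their values were seen. The genes printed beside HP and IGF1 were the rest of those checked for the signs between days. SLC25A1 and SLC25A10 could not be told apart once the digit was lost and were not used. Alternatives were uncentred or scaled arrays, 1 probe or the median of probes, other minimums of arrays, no block, no dye term, lmerTest 3.1.3, array weights, fewer arrays, adjusted p, and each cow pair left out. Leaving out probes on under 24 arrays and cow pair as a fixed term were chosen after seeing the data. No sequence is shown.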

Additional observations from a re-analysis of the deposited data

Results flagged for a closer look

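Of 45 sets of 4 or 6 arrays of 1 enzyme and 1 comparison, 1 held an array that lay apart from the others by Dixon's criterion, which chance alone passes in about 1 of 20 sets. On 1 of the 6 arrays that set B4F125 against B4F75 cows, at 28 d, the log2 ratio of CS was −1.88, while the other 5 lay between −0.26 and 0.61. The fit of the 12 arrays of that day alone called CS for B4F125 vs B4F75, and the fit of all arrays did not (−0.43 ± 0.33). The interaction tests gave no call among the 9 enzymes.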

How the results depend on the processing

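No direction changed among the 10 values followed one by one. These were the values of the 9 enzymes with an unadjusted p under 0.05 in the main fit, and PC at 7 d vs −7 d. Chosen for their distance from 0, they were likely to keep their sign, so this says little about stability. Cow pair removed from the fit (no block) changed no call: 1 of 9 enzymes at 7 d vs −7 d, 1 at 28 d vs −7 d, and 0 in the other comparisons. For IDH2, DLST and MDH2 this no-block fit gave −0.76, −0.59 and −0.48 at 28 d vs −7 d. The count of enzymes called was 1 in place of 0 for B4F125 vs B4F75 at 28 d with the 12 arrays of that day alone (CS), and 1 in place of 0 for B5F125 vs B5F75 at −7 d (FH) with array quality weights, without the arrays between days, and with the 12 arrays of that day alone. It was 0 in place of 1 at 7 d vs −7 d with adjusted p as the threshold. At 28 d vs −7 d it was 2 with arrays left uncentred, and 0 with scaled arrays, 1 probe per gene or adjusted p. With each of 16 cow pairs left out in turn it ran from 0 to 1 for B5F125 vs B5F75 at −7 d, from 0 to 1 at 7 d vs −7 d and from 0 to 2 at 28 d vs −7 d. The cause was not tested. IDH2 ran from −1.04 to −0.34 at 7 d and from −1.12 to −0.20 at 28 d over those fits, each time closest to 0 without the B4F75 pair. Without that pair the median of the 9 at 28 d vs −7 d also changed sign (0.26, against −0.20 with it). Comparisons of days rest on 12 arrays of 4 pairs. Signal over background was not in the files.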
